A study of Mus musculus with 4 samples.

Results

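Head muscle progenitors with no counted transcript of Myf5 or Myod1 were picked out of 4 single-cell libraries by their marker transcripts. The absence of a count does not show that a gene was off. A barcode (the tag of 1 droplet, usually 1 cell) was counted as a branchiomeric muscle progenitor (BrM progenitor) without Myf5 when it held at least 3 unique molecular identifiers (UMIs) of Tcf21 and Msc summed and no UMI of Myf5 or Myod1. It also had to hold at most 2 UMIs of Arg1, at most 2 of Epcam, at most 2 of Cdh5 and Pecam1 summed and at most 9 of Myl7. These bounds kept 667 of 14243 barcodes. The libraries held cells of the Tbx1 lineage from Swiss Webster mouse embryos, marked with GFP by a Cre inserted into the Tbx1 gene, sorted as GFP+ and DAPI- and counted with the Chromium 3' v2 assay. Control libraries (Ctrl) came from Tbx1Cre/+;Rosa26-GFPflox/+ embryos, and conditional knockout libraries (cKO) from Tbx1Cre/flox;Rosa26-GFPflox/+ embryos. The Cre knock-in takes the place of 1 working copy of Tbx1, so the Ctrl embryos were heterozygous for Tbx1 and both genotypes carried the same Cre and reporter. Embryos were taken at embryonic day (E) 8.5, as the upper body, and at E9.5, as the pharyngeal apparatus and heart, which the study's methods give as taken with the back. Tissue of several embryos was pooled, and each of the 4 combinations of stage and genotype was 1 library. At E8.5 the study gives slightly higher somite counts for the cKO than for the Ctrl embryos, so genotype and age cannot be told apart there.

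The muscles of the face, jaw, larynx and upper neck form from pharyngeal mesoderm and not from somites. In this mesoderm Tcf21 and Msc, a pair of basic helix-loop-helix factors, and the homeobox gene Lhx2 act upstream of Myf5 and Myod1, which commit a cell to muscle. Tbx1, a T-box factor lost in the 22q11.2 deletion syndrome, is needed in the pharyngeal mesoderm for these muscles to form.

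The libraries held 1434 (Ctrl E8.5), 1090 (cKO E8.5), 5453 (Ctrl E9.5) and 6266 (cKO E9.5) barcodes and between 25391654 and 104773150 UMIs. The selected cells had median depths of 19128.5, 25580, 19410 and 19190.5 UMIs in that order, and median counts of 3820, 4417, 4276 and 3866 detected genes. With 1 library per group, nothing below has a replicate check or a test. Every interval is a 95% interval for counting error only. The cKO E9.5 counts were made on a larger set of gene models than the counts of the remaining libraries (31053 against 27998 identifiers, of which 27514 were shared, 1027 of them under another symbol), and only the shared identifiers were used. Some genes differed in the whole cKO E9.5 library: in all other barcodes Igf2 was at 269 UMIs per 1000000 UMIs (UPM) at Ctrl E9.5 and 9.32 at cKO E9.5, Pgk1 at 57.7 and 813, and Cdh6 at 1.13 and 18.9. Sex was not given for the pooled embryos, and Xist, made from the inactive X chromosome, was at 744, 70.1, 405 and 769 UPM in the selected cells of Ctrl E8.5, cKO E8.5, Ctrl E9.5 and cKO E9.5. Whether the floxed part of Tbx1 reaches the 3' end counted here is not given in the sources used here, so Tbx1 counts do not check the genotype labels, and every genotype difference below is between libraries as labelled. Between the Ctrl E9.5 and cKO E9.5 libraries 55 barcode sequences were shared, and 2 to 10 between other pairs. No shared sequence was a selected cell in both of its libraries.

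The selected cells made up 84 of 1434 barcodes at Ctrl E8.5 (5.86%, exact binomial interval 4.70 to 7.20) and 67 of 1090 at cKO E8.5 (6.15%, 4.80 to 7.74). At E9.5 they made up 298 barcodes in Ctrl (5.46%, 4.88 to 6.10) and 218 in cKO (3.48%, 3.04 to 3.96). The E8.5 intervals overlapped and the E9.5 intervals did not. Among barcodes within the Epcam and the Cdh5 and Pecam1 bounds, the E9.5 shares were 6.76% (6.04 to 7.54) in Ctrl and 3.64% (3.18 to 4.14) in cKO. The bound on Arg1, a marker of multilineage progenitors in this tissue, removed 15, 55, 58 and 107 barcodes that passed the Tcf21 and Msc minimum at Ctrl E8.5, cKO E8.5, Ctrl E9.5 and cKO E9.5. Without the upper bounds the shares were 7.18% (5.90 to 8.64) at Ctrl E8.5, 11.2% (9.38 to 13.2) at cKO E8.5, 6.64% (5.99 to 7.33) at Ctrl E9.5 and 5.15% (4.62 to 5.73) at cKO E9.5. The overlap of the E8.5 intervals thus depended on these bounds, since without them the cKO E8.5 interval lay above that of Ctrl E8.5. The cKO E8.5 library was also deeper, with a median of 23984 UMIs over all barcodes against 17319.5 at Ctrl E8.5. Fixed UMI bounds act differently at different depths. With cells thinned to 10000 UMIs before the bounds were applied, the shares were 3.16% at Ctrl E8.5 and 2.49% at cKO E8.5. The part of depth in these shares was not tested. Fewer cells of a type and less Tcf21 and Msc RNA per cell cannot be told apart in such a share. Myf5 or Myod1 removed no barcode at E8.5, 79 at Ctrl E9.5 and 50 at cKO E9.5.

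The minimum of 3 UMIs lay inside a continuous range. Barcodes with exactly 3 UMIs of Tcf21 and Msc numbered 30, 21, 75 and 51 at Ctrl E8.5, cKO E8.5, Ctrl E9.5 and cKO E9.5, and those just outside, with 2 UMIs and the same other bounds, 44, 38, 78 and 96. The median sum was 5 UMIs in each library and the highest 13, 19, 26 and 27. At E8.5 most of the cells were chosen by Tcf21 alone (55 of 84 in Ctrl, 52 of 67 in cKO), and none by Msc alone. Both transcripts were found in 34.5% of the cells at Ctrl E8.5, 22.4% at cKO E8.5, 65.8% at Ctrl E9.5 and 69.7% at cKO E9.5. At E8.5 the label thus rests mainly on Tcf21, which other mesoderm also expresses.

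The label was checked against genes outside the bounds. The pooled level of a gene is given in UPM summed over the cells of a library, beside the same value in all other barcodes of that library. Apart from Msc and Tcf21, which chose the cells, the genes that stood highest above the other barcodes in every library included Edn1, Hlx, Lhx2, Nkain4, Fabp3, Igfbp3 and Tle4. Hlx, a homeobox gene, was at 16.5, 8.42, 115 and 56.3 UPM in the cells and at most 10.1 UPM elsewhere. Tlx1, Lhx2 and Edn1, the markers that the bounds did not use, were higher in the cells than in the other barcodes in all 4 libraries. At cKO E8.5 Tlx1 was at 6.73 UPM in the cells and 3.17 in the other barcodes. It was at 10.9 UPM in barcodes just outside the minimum, with 2 UMIs of Tcf21 and Msc, so Tlx1 is not counted for the label there. Of the genes of later muscle stages, Pax7, Chrna1, Mymk and Met had no UMI, Myog had 2 UMIs in all 4 libraries and Myf6 had 5. Des, the muscle intermediate filament, was present at 30.7, 48.8, 71.1 and 54.1 UPM at Ctrl E8.5, cKO E8.5, Ctrl E9.5 and cKO E9.5, and at 18.3, 32.2, 54.9 and 55.9 UPM in the other barcodes. Tnnt1, a slow troponin, was at 10.6, 10.7, 11.6 and 20.03 UPM in the cells. The 7 committed muscle markers summed to 33.7, 50.5, 73.7 and 55.2 UPM, nearly all of it Des, against 19.96, 33.9, 58.9 and 59.2 UPM in the other barcodes.

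Markers of other cell types were compared in the same way. The defining endothelial gene Cdh5, itself bounded, had no UMI in 3 of the 4 libraries, and the summed level of 8 endothelial markers was 176, 168, 47.6 and 43.4 UPM at Ctrl E8.5, cKO E8.5, Ctrl E9.5 and cKO E9.5, most of it Kdr and Egfl7. The other barcodes had 194, 177, 229 and 87.4 UPM, so at E8.5 the cells stood close to the rest for this list. The epithelial list of 7 genes summed to 19.8 to 28.4 UPM against 73.1 to 335 UPM in the other barcodes, and the 8 cardiomyocyte genes to 36.1 to 106 UPM against 241 to 428 UPM. The 7 neural crest genes summed to 5.61 to 13.9 UPM, and the 5 blood genes to at most 5.12 UPM, which was at cKO E9.5 and above the 3.59 UPM of the other barcodes there. The 6 mesenchyme genes summed to 645, 544, 299 and 280 UPM, and to 648, 622, 559 and 621 UPM in the other barcodes. The 4 somite genes moved with genotype at E9.5, from 37.8 UPM in Ctrl to 76.1 UPM in cKO, as they did in the other barcodes (69.3 and 138 UPM). The 6 neural genes also did, from 15.8 to 44.1 UPM, with 39.8 and 81.1 UPM in the other barcodes. Of the level at cKO E9.5 in the cells, Tubb3 gave 15.4 UPM, and 47 of its 69 UMIs lay in 1 cell. The part of somite-like or neuron-like cells, or of free RNA, in the differences below was not tested.

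Lhx2, Tlx1 and Edn1 differed between the libraries. Lhx2 (chromosome 2, 38339271 to 38369737, GRCm38.p6), a LIM homeobox factor of early head muscle progenitors, was at 23.6 UPM at Ctrl E8.5 (16.9 to 32.2), 14.0 at cKO E8.5 (9.08 to 20.7), 107 at Ctrl E9.5 (98.9 to 115) and 30.7 at cKO E9.5 (25.8 to 36.3). Tlx1 (chromosome 19, 45150092 to 45156943), a homeobox factor of the anterior pharyngeal region and the spleen, was at 18.3 (12.4 to 26.0), 6.73 (3.48 to 11.8), 71.9 (65.4 to 78.9) and 13.6 UPM (10.4 to 17.4) in the same order. Both were highest at Ctrl E9.5, clear of the other libraries' intervals, and the intervals at cKO E9.5 overlapped those at Ctrl E8.5. Edn1 (chromosome 13, 42301476 to 42307990), the endothelin 1 ligand that signals to neural crest cells of the lower jaw, was at 88.1 (74.5 to 103), 37.0 (28.6 to 47.1), 78.9 (72.0 to 86.3) and 26.0 UPM (21.5 to 31.2). It was high in both Ctrl libraries and low in both cKO libraries, with no overlap of intervals between genotypes.

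**Figure D1:**
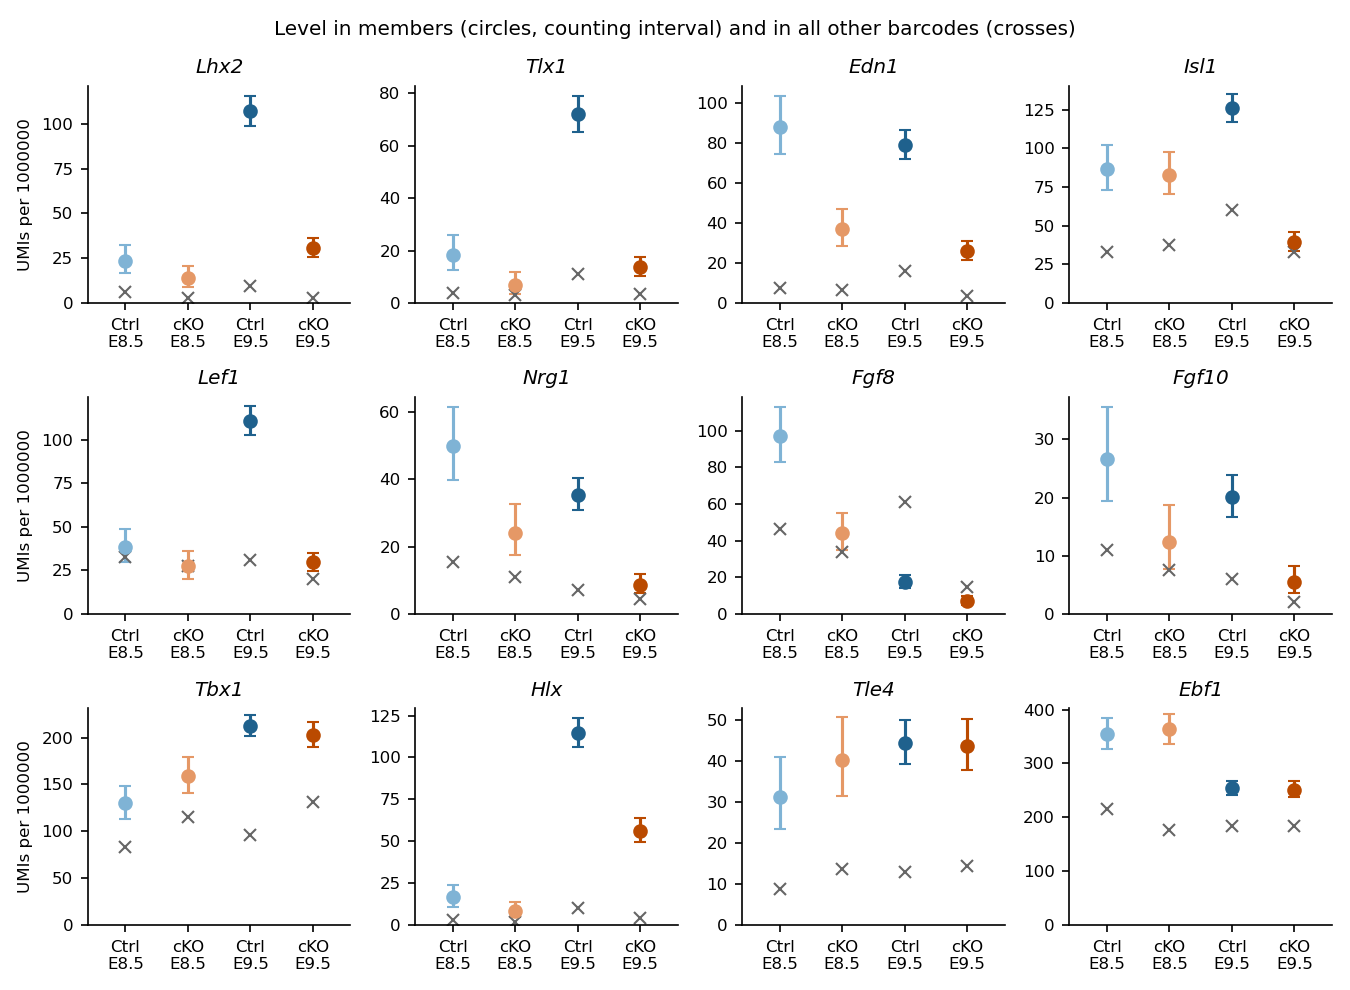
Levels of 12 genes, in UMIs per 1000000 on a linear axis from 0, in the selected cells of each library (circles, bars are 95% counting intervals) and in all other barcodes of the same library (crosses). Edn1 is higher in both Ctrl libraries than in either cKO library, Lhx2 and Tlx1 peak at Ctrl E9.5 (107 and 71.9 UPM), and Ebf1 has nearly equal levels in both genotypes of a stage.

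The same was seen as shares of cells once each cell had been thinned to 10000 UMIs, which left out 1, 0, 13 and 5 cells. Lhx2 was detected in 20.5%, 13.4%, 47.7% and 20.2% of the thinned cells at Ctrl E8.5, cKO E8.5, Ctrl E9.5 and cKO E9.5. Edn1 was detected in 41.0%, 22.4%, 43.9% and 18.8%, and Tlx1 in 16.9%, 7.46%, 30.2% and 7.51%. At least 1 of the 3 genes was found in 47 of 83 cells at Ctrl E8.5 (56.6%, 45.3 to 67.5), 26 of 67 at cKO E8.5 (38.8%, 27.1 to 51.5), 208 of 285 at Ctrl E9.5 (73.0%, 67.4 to 78.1) and 83 of 213 at cKO E9.5 (39.0%, 32.4 to 45.9). Without thinning the shares were 73.8% at Ctrl E8.5, 82.6% at Ctrl E9.5 and 57.8% at cKO E9.5. Lhx2 and Tlx1 together were found in 42 of 285 cells at Ctrl E9.5 and in 1 of 213 at cKO E9.5. They were found together in 3 of 83 cells at Ctrl E8.5 and in 0 of 67 at cKO E8.5, which allows a share of up to 4.48% (3 cells of the total). Each gene alone was also detected in a lower share of cKO cells. The joint share that this alone would give was not computed, so no loss of a joint state is read. Barcodes with Cdh5 or Pecam1, which should lack Lhx2 and Tlx1, gave the background for these: at Ctrl E9.5, 2 of 294 held Lhx2 and 7 held Tlx1, and at cKO E9.5, 2 of 62 held Lhx2 and 1 held Tlx1. At E8.5 there were 18 and 11 such barcodes, of which 1 and 0 held Lhx2 and 2 and 2 held Tlx1. Endothelial cells make Edn1 themselves, so these barcodes are no background for it, and none is given. The Tlx1 share at cKO E8.5 was below that background, so no Tlx1 expression is read from it. At Ctrl E8.5 the background of 18 barcodes, 2 of them with Tlx1, was too small to set the Tlx1 share of 16.9% apart from it. No genotype difference in Tlx1 is read from the E8.5 shares.

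The levels of these genes were followed over the whole range of Tcf21 and Msc counts, with the other bounds kept. At Ctrl E9.5 Lhx2 was at 3.46 UPM in barcodes with no UMI of Tcf21 or Msc, 29.8 with 1, 84.99 with 2 and 71.2 with 3. At cKO E9.5 it was at 1.41, 6.15, 18.1 and 21.8 UPM in the same classes. Barcodes just outside the minimum thus had an Lhx2 level near that of those just inside in the same library, and the Ctrl level was the higher one in every class from 0 to 10 or more. Tlx1 at Ctrl E9.5 was already at 56.1 UPM in barcodes with 1 UMI and at 60.4 UPM in those with 10 or more. Edn1 at E8.5 depended on the minimum: just outside it, at 2 UMIs, Ctrl was at 28.5 UPM and cKO at 60.6, and just inside, at 3 UMIs, Ctrl was at 61.9 and cKO at 44.0. Isl1, a LIM homeobox factor shared by heart and head muscle progenitors, was low in barcodes with no UMI of Tcf21 or Msc and did not follow the count in 1 direction above that. At Ctrl E9.5 it was at 22.2 UPM with none, 131 with 1 UMI, 147 with 4 to 5 and 83.1 with 10 or more, and at cKO E9.5 at 18.1, 51.4, 31.2 and 23.8 UPM. At Ctrl E8.5 it was higher in each class up to 4 to 5 UMIs, at 19.6, 49.9, 56.9, 76.9 and 114 UPM. The depth of the barcodes moved with the count, from a median of 15400 UMIs with none to 23757 with 10 or more at Ctrl E9.5 and from 15066 to 22018 at cKO E9.5, and its part was not tested.

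**Figure D2:**
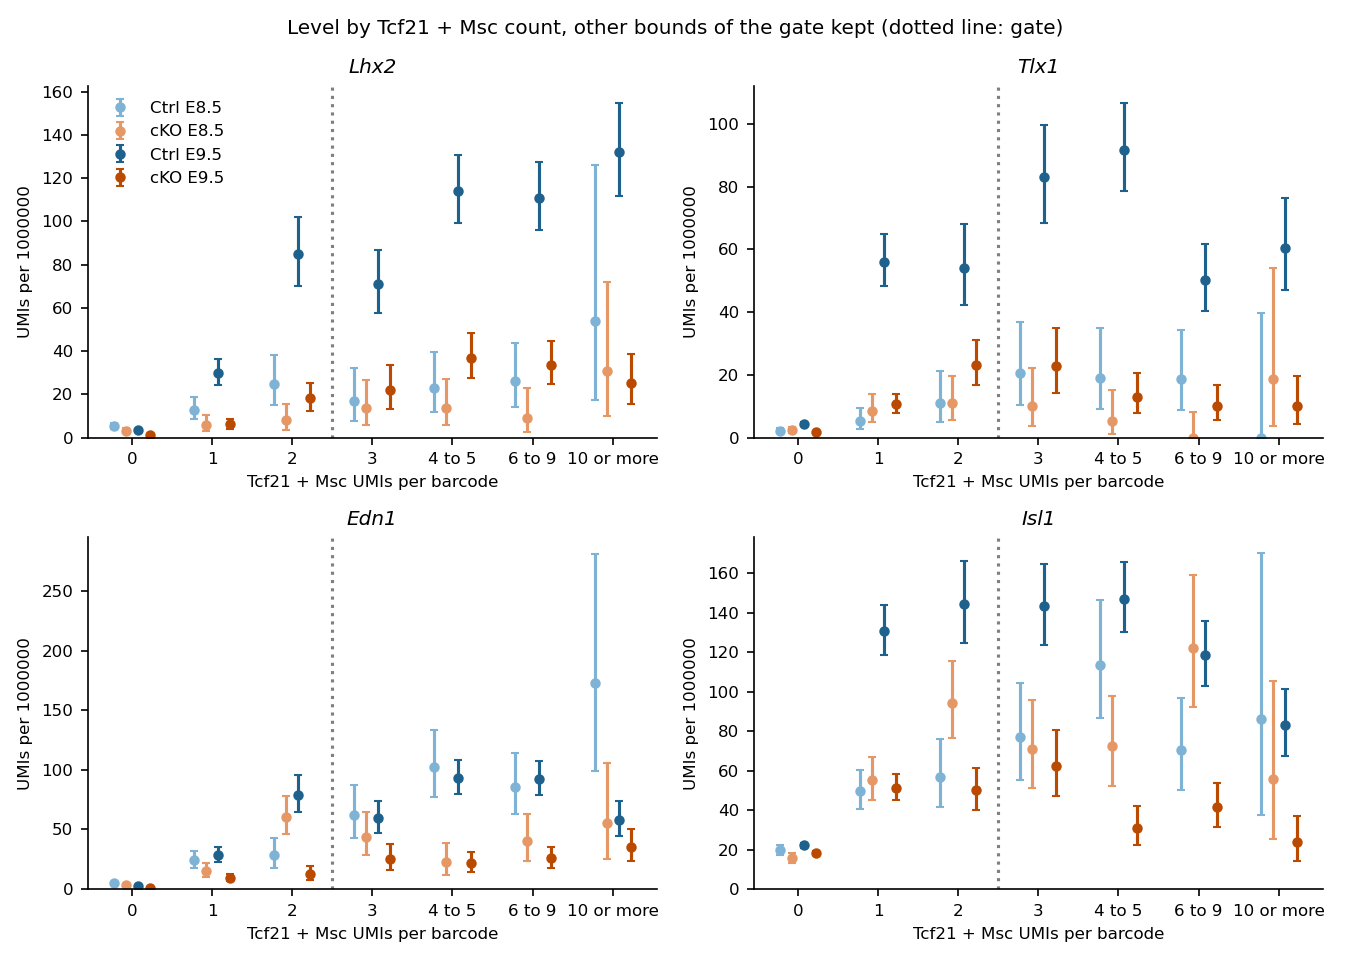
Levels of Lhx2, Tlx1, Edn1 and Isl1, in UMIs per 1000000 on a linear axis, in barcodes grouped by their summed Tcf21 and Msc UMIs, by library, with the other bounds kept. Bars are 95% counting intervals, the dotted line marks the minimum of 3 UMIs, and the class of 10 or more holds 4 and 6 barcodes at E8.5. Lhx2, Tlx1, Edn1 and Isl1 of Ctrl E9.5 lie above cKO E9.5 in every class.

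The comparison of cKO with Ctrl at E9.5 asks how the selected cells differ when the second copy of Tbx1 is also removed. A gene was compared if it had at least 50 UMIs over both groups and a mean of at least 5 UPM, and it was counted as past the fold if its log2 ratio lay at least 2-fold from the median of all genes compared. The median log2 ratio was -0.25, and 8713 genes were compared. Of these, 214 (2.46%) were higher and 212 (2.43%) lower past the fold in the cells labelled cKO. Of 15 measured BrM transcription factors, 3 were lower, 1 was higher and 11 lay within the fold, with a list median of 0.19 relative to all genes, against 0.22 for the same list in the other barcodes.

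The 3 lower factors were Lhx2, Tlx1 and Isl1. The log2 ratio of Lhx2 was -1.80 (-2.08 to -1.53) and that of Tlx1 -2.40 (-2.82 to -2.02), in a library where the other barcodes had -1.80 and -1.71. Isl1 was at 86.9, 83.0, 126 and 39.4 UPM at Ctrl E8.5, cKO E8.5, Ctrl E9.5 and cKO E9.5. It was lowest at cKO E9.5, with a log2 ratio of cKO over Ctrl of -1.68 (-1.92 to -1.44) at E9.5 and -0.07 (-0.40 to 0.27) at E8.5, and the difference between the stages was not tested. The share of thinned cells with Isl1 was 61.1% (55.1 to 66.7) at Ctrl E9.5 and 26.8% (20.9 to 33.2) at cKO E9.5. The higher factor was Eya4, a transcriptional cofactor and phosphatase, with 15 UMIs (2.45 UPM) in Ctrl and 54 (12.0 UPM) in cKO at E9.5. Factors with near equal levels in both genotypes included Ebf1 (254 and 252 UPM) and Tle4 (44.5 and 43.6 UPM) at E9.5. Tbx1 itself was at 213 and 203 UPM by its 3' counts.

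Secreted ligands were among the lower genes. Edn1 had a log2 ratio of -1.60 (-1.90 to -1.31), against -2.18 in the other barcodes. Nrg1, the neuregulin ligand of ErbB receptors, was at 49.6, 24.1, 35.4 and 8.68 UPM at Ctrl E8.5, cKO E8.5, Ctrl E9.5 and cKO E9.5, with a log2 ratio at E9.5 of -2.03 (-2.56 to -1.53) in the cells and -0.69 elsewhere. The Nrg1 level was lowest at cKO E9.5 and higher in Ctrl at both stages. Aplnr, the apelin receptor, was at 11.3 UPM in Ctrl and 1.78 in cKO at E9.5, with -2.66 in the cells and -2.24 elsewhere. Of 15 measured genes of endothelin, chemokine, semaphorin and growth factor guidance, these 3 were lower and none was higher.

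Growth factor signalling genes followed. Of 12 measured FGF genes 2 were lower and none higher. Fgf10, which drives growth of pharyngeal mesoderm, was at 20.1 UPM in Ctrl and 5.56 in cKO at E9.5 (log2 ratio -1.85, -2.53 to -1.22), and Fgf8 at 17.6 and 6.90 UPM (-1.35, -1.98 to -0.76). The other barcodes had -1.61 and -2.06, so Fgf8 was lower by more outside the cells than in them. Of 14 measured BMP genes, Bmp7, a ligand, was lower (29.2 to 8.68 UPM, -1.75, with -0.81 elsewhere), as was Grem1, a BMP antagonist (17.6 to 7.35 UPM, -1.26, with -0.15 elsewhere). Of 9 measured Notch genes Hey1, a transcriptional target, was lower, at 62.8 UPM in Ctrl and 20.3 in cKO (-1.63, with -0.93 elsewhere).

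The WNT genes included nuclear effectors. Lef1, which binds beta-catenin, was at 38.4, 27.5, 111 and 29.6 UPM at Ctrl E8.5, cKO E8.5, Ctrl E9.5 and cKO E9.5. It was high at Ctrl E9.5 and between 27.5 and 38.4 UPM in the remaining libraries, with a log2 ratio at E9.5 of -1.91 (-2.18 to -1.64) in the cells and -0.62 elsewhere. Its relative Tcf7 was at 48.4 and 20.3 UPM at E9.5 (-1.26, -1.61 to -0.91), and the WNT inhibitor Dkk1 at 12.7 and 4.90 UPM (-1.38, with 0.59 elsewhere). Rspo3, which strengthens WNT signals, was higher, at 3.26 and 8.46 UPM. The remaining 12 of 16 measured WNT genes lay within the fold, Axin2 at 10.8 and 10.7 UPM among them.

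Heart field genes gave 3 lower of 12 measured: Isl1, Mef2c (30.7 to 11.6 UPM) and Tbx3 (8.15 to 2.45 UPM). Of 7 retinoic acid genes Aldh1a3, which makes retinoic acid, was higher, from 0.489 UPM in Ctrl to 17.1 UPM in cKO at E9.5, as it was elsewhere in the library (1.49 and 12.3 UPM). Igfbp3, which binds insulin-like growth factors, was at 42.2 and 89.5 UPM (1.08, 0.85 to 1.31, with 0.16 elsewhere). Bdnf, a neurotrophin, was at 7.50 and 21.8 UPM (1.54, 1.02 to 2.08, with 0.77 elsewhere). Fabp3, a fatty acid carrier of muscle, was at 50.4 and 125 UPM. Of 10 measured IGF genes Igfbp3 was higher and Igf2, low throughout the library, was lower, and of 3 measured genes of committed muscle Tnnt1 was higher (log2 ratio 0.79) and Mef2c lower. No gene of S phase (20 measured), G2/M (20), hedgehog signalling (7) or MYC-related growth (11) was past the fold. The S phase list had a median of -0.48 relative to all genes, with 17 of 20 genes below the median, and the same list had -0.39 in the other barcodes. Glycolysis gave 2 lower and 1 higher of 17, the higher gene being Pgk1, which was higher throughout the library. Matrix genes gave 2 higher (Postn and Cdh6) and none lower of 16.

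The study names Lhx2, Myf5, Bmp7, Fgf10 and Foxf1 as lower without Tbx1, and Pax8, Pax6 and Bdnf as gained in the multilineage progenitors, a population other than the selected cells. Of the first list 3 of 3 measured genes were lower and of the second 1 of 2 was higher. The study chose both lists with these libraries among its data, so the counts are not independent evidence of a direction.

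Genes that differed in the cells by more than in the rest of the library were named by size, from 76 lower and 39 higher candidates at E9.5. The lowest ratio belonged to Lrrn1, a leucine-rich repeat membrane protein, with 126 UMIs in 81 Ctrl cells and 8 UMIs in 8 cKO cells (log2 ratio -3.53, -4.77 to -2.51, with -1.13 elsewhere). Ntng1, an axon guidance ligand, had 161 and 26 UMIs (-2.18, with -0.52 elsewhere). Cd40, a receptor of the tumour necrosis factor family, had 129 and 24 UMIs (-1.98, with -0.65 elsewhere). Htra3, Gna14, Emp1, Sel1l3, Clu and Mme had ratios between -3.41 and -1.95. Among the higher genes, Dcdc2a, which binds microtubules, had 13 UMIs in 10 Ctrl cells and 45 UMIs in 36 cKO cells. Dab1, an adaptor of reelin signalling, was at 12.2 and 29.6 UPM (1.28, 0.86 to 1.70) while it had -0.75 elsewhere. Tal2, a basic helix-loop-helix factor, had 15 and 42 UMIs (1.93, with -0.97 elsewhere). Tubb3, a neuronal tubulin, had 69 UMIs at cKO E9.5, of which 47 lay in 1 cell, and without that cell it was within the fold (0.75 relative to the median).

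At E8.5 the groups of 84 and 67 cells allowed 5638 genes to be compared, with a median log2 ratio of 0.02. Past the fold, 94 genes (1.67%) were higher and 50 (0.887%) lower in the cells labelled cKO. None of 11 measured genes of the BrM transcription factor list was past the fold. Msc, which chose the cells and is not in that list, was lower past it. It was at 29.0 UPM in Ctrl and 14.0 in cKO (-1.05, -1.80 to -0.32, with -1.23 elsewhere). Ebf1 was at 354 UPM in Ctrl and 363 in cKO, and Tbx1 at 130 and 159. The log2 ratio of Lhx2 was -0.75 (-1.54 to 0.00), within the fold. Tlx1, at 18.3 UPM in Ctrl and 6.73 in cKO, had fewer than 50 UMIs and was not compared.

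Ligands were also among the listed genes that were lower at E8.5. Edn1 had a log2 ratio of -1.25 (-1.69 to -0.82), with -0.20 in the other barcodes. With barcodes of 2 UMIs of Tcf21 and Msc included, the Edn1 ratio was -0.62 relative to the median, within the fold. Fgf8 was at 96.9 UPM in Ctrl and 44.3 in cKO (-1.13, -1.54 to -0.73, with -0.45 elsewhere), and Fgf10 at 26.6 and 12.3 UPM (-1.11, -1.91 to -0.34, with -0.55 elsewhere). Nrg1 had -1.04 (-1.61 to -0.49, with -0.50 elsewhere). These ratios stood near the fold. With the ratio of all other barcodes subtracted, Nrg1 (-0.56) and Fgf10 (-0.57) were within it. Of 11 further alternative treatments of the data 6 kept Nrg1 and 5 kept Fgf10 past it. Among the 11 were a rescaling of library totals (TMM), a filter of 10 UMIs and a minimum of 5000 UMIs per barcode. These could hardly move a ratio at E8.5, so the counts overstate how well the calls held. Cyp26a1, which breaks down retinoic acid, was at 67.4 and 29.2 UPM (-1.21, with -0.63 elsewhere). Fgfr1, an FGF receptor, was higher, at 35.5 and 81.3 UPM (1.20, with 0.87 elsewhere), as was Myc, at 26.6 and 59.5 UPM (1.16, with 0.46 elsewhere). Lum, a matrix proteoglycan, had 43 UMIs in Ctrl and 10 in cKO. No gene of the heart field (8 measured), BMP (7), WNT (8), Notch (4), hedgehog (4) or IGF (9) lists was past the fold at E8.5. Nor was any of the glycolysis (17), S phase (20) or G2/M (20) lists. With 1.67% of all genes higher and 0.887% lower past the fold, lists this short may hold none without differing from the rest. The cKO embryos of E8.5 had slightly more somites, and some of the lower genes were also lower at the later stage in Ctrl. From Ctrl E8.5 to Ctrl E9.5 Fgf8 went from 96.9 to 17.6 UPM and Cyp26a1 from 67.4 to 25.4, while Edn1 went from 88.1 to 78.9. Age and genotype cannot be told apart in the E8.5 ratios.

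Among the largest higher ratios at E8.5, a large part of the UMIs lay in single cells. Retn had no UMI in Ctrl and 69 in cKO, of which 57 lay in 1 of 5 positive cells. Dlg1 had 22 and 174 UMIs with 52 in 1 cell, and Gfod2 had 32 and 134 with 61 in 1 cell. Tapbpl, Ptcra and Cul9 had 29 to 39 of their UMIs in 1 cell. Without that cell Dlg1 and Gfod2 stayed past the fold (2.39 and 1.11 relative to the median), while Retn, Tapbpl, Ptcra and Cul9 had fewer than 50 UMIs left and could not be compared. Bambi, a decoy receptor of BMP signalling that is not in the BMP list, had 18.9 UPM in Ctrl and 54.4 in cKO (1.52, 0.93 to 2.15). With the cell holding most UMIs of each gene left out, 70 genes were higher and 24 lower at E8.5.

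The E8.5 and E9.5 genotype comparisons shared no library, so their calls could be laid side by side. Of 5618 genes compared at both stages, 91 were lower at E9.5, 50 were lower at E8.5 and 8 were lower at both, which is 8.79% of the E9.5 list and 16% of the E8.5 list. The 8 genes were Edn1, Nrg1, Fgf8, Fgf10, Tslp, Igfbpl1, Dusp14 and Sccpdh. The first 4 are the ligands named above, and Tslp is a cytokine, Igfbpl1 a secreted binding protein and Dusp14 a phosphatase of MAP kinases. Tslp was at 46.7, 21.3, 17.3 and 6.01 UPM at Ctrl E8.5, cKO E8.5, Ctrl E9.5 and cKO E9.5. Igfbpl1 was at 92.8, 39.3, 27.6 and 10.7 UPM, and Dusp14 at 33.1, 15.1, 33.9 and 11.6 UPM. For Dusp14 the other barcodes had log2 ratios of -0.27 at E8.5 and -1.12 at E9.5, and for Igfbpl1 -0.59 and 0.15. Higher at both stages were 6 genes (8.33% of 72 and 7.14% of 84), namely B230312C02Rik, Kctd12b, Ybx3, Cacna1a, Rpl29 and Snhg9, named here after their values were seen. In opposite directions were 9 genes, 3 of them higher at E9.5 and lower at E8.5, with Xist among these. Age at E8.5, by somite count, cannot be told apart from genotype in these calls either.

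**Figure D3:**
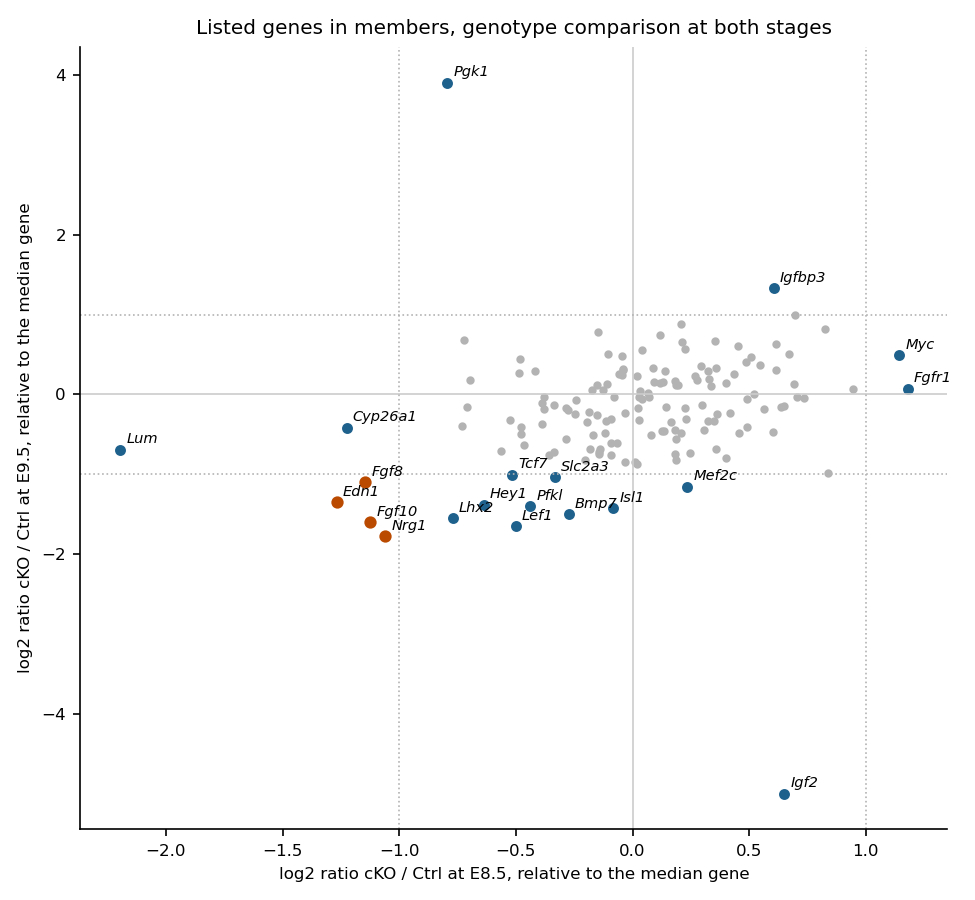
Log2 ratio of cKO over Ctrl in the selected cells at E8.5 (horizontal axis) and E9.5 (vertical axis), each relative to the median gene, for the 149 listed genes compared at both stages. Dotted lines mark the 2-fold limits and named points lie past one of them. Edn1, Nrg1, Fgf8 and Fgf10 are lower past the fold at both stages (4 genes), and no listed gene is higher at both (0 genes).

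The selected cells were not uniform. Isl1, detected in 47.0%, 53.7%, 61.1% and 26.8% of thinned cells at Ctrl E8.5, cKO E8.5, Ctrl E9.5 and cKO E9.5, was used to divide them as a description, a division chosen with the values known. At Ctrl E9.5 the 174 cells with an Isl1 UMI had 156 UPM of Lef1, 121 of Tlx1 and 42.0 of Nkx2-5, a cardiac homeobox factor. The 111 cells without one had 70.3, 36.0 and 13.5 UPM, so these genes were higher where Isl1 was detected. Uncx went the other way, with 17.8 UPM in cells with and 45.9 UPM in cells without Isl1, and Lhx2 differed little (94.3 and 111 UPM). At cKO E9.5 Lef1 was at 77.2 UPM in the 57 cells with and 18.6 UPM in the 156 cells without Isl1, Tlx1 at 29.8 and 3.85 UPM and Uncx at 15.8 and 64.1 UPM. The order was that of Ctrl E9.5 for these 3 genes.

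Genotype differences at E9.5 were present on both sides of that division. In cells with Isl1 the log2 ratio of Lhx2 was -1.58 (-2.37 to -0.87), and in cells without it -2.08 (-2.62 to -1.56). For Tlx1 the ratios were -2.02 and -3.23, for Lef1 -1.01 and -1.92, and for Edn1 -1.12 and -1.53. Each of these 4 genes was thus lower in cKO whether or not Isl1 was detected. Hey1 had -0.48 (-1.20 to 0.19) with and -2.25 (-2.97 to -1.57) without Isl1, with no overlap of the intervals, and this difference was not tested. Tbx1 counts gave -0.13 and 0.02. Cells with a UMI of a Hox gene of paralog groups 2 or 3, which mark the arches behind the first, made up 15.7%, 19.4%, 18.6% and 16.0% of thinned cells at Ctrl E8.5, cKO E8.5, Ctrl E9.5 and cKO E9.5. At Ctrl E9.5 they had 35.8 UPM of Lhx2 (21.6 to 56.0), against 116 UPM (102 to 130) in the Hox-negative cells. At cKO E9.5 the levels were 14.7 UPM (4.77 to 34.3) and 30.2 UPM (22.7 to 39.4), with overlapping intervals, and at E8.5 the Hox-positive cells held 1 Lhx2 UMI in each library. Tlx1 was near equal on the 2 sides at Ctrl E9.5, at 83.0 and 88.8 UPM.

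**Figure D4:**
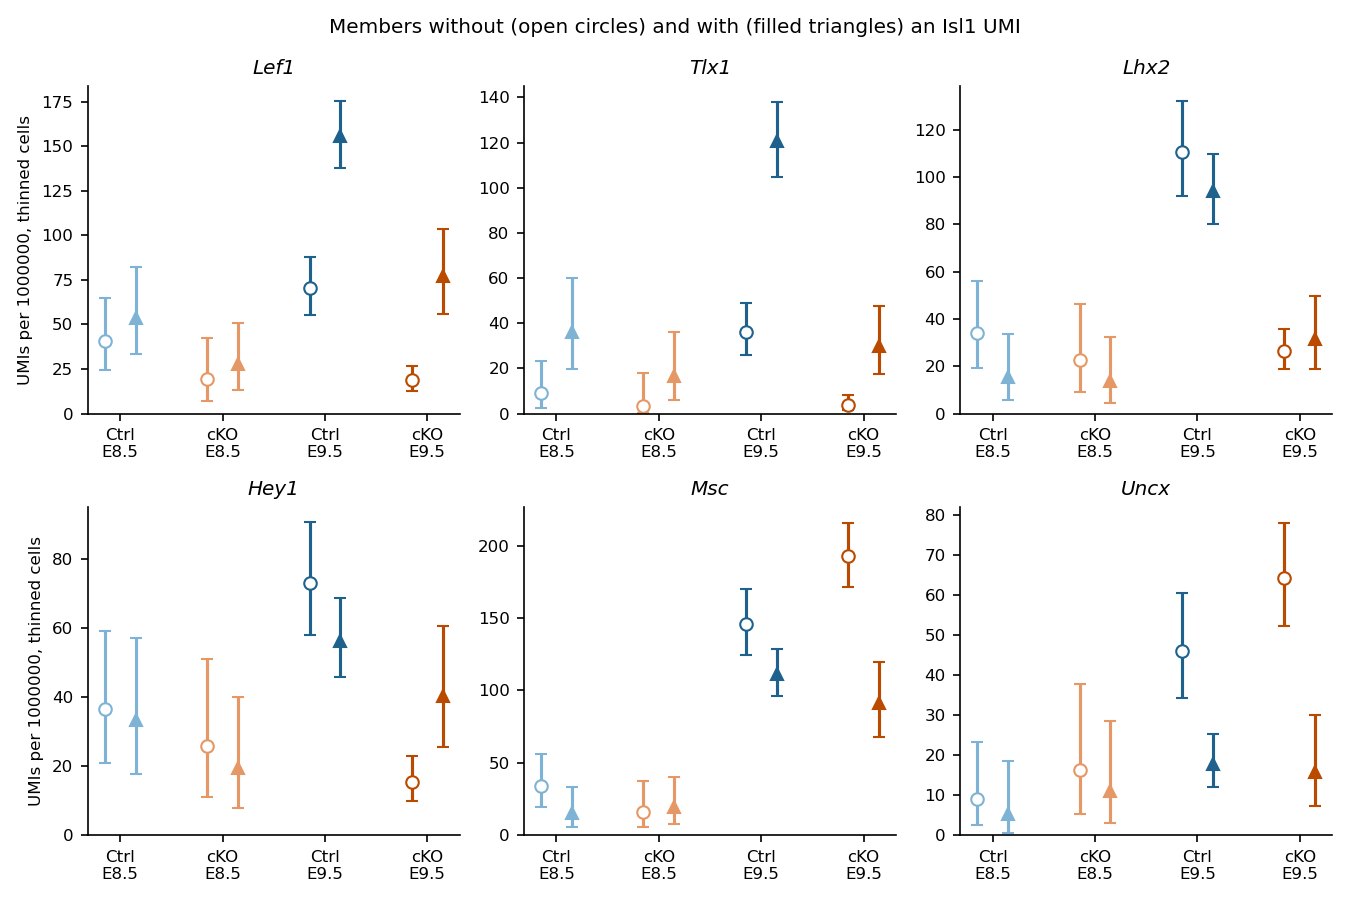
Levels of Lef1, Tlx1, Lhx2, Hey1, Msc and Uncx, in UMIs per 1000000 on a linear axis, in selected cells thinned to 10000 UMIs, without an Isl1 UMI (open circles) and with one (filled triangles), by library. Bars are 95% counting intervals. At both E9.5 libraries Lef1 and Tlx1 are higher with Isl1 and Uncx is higher without it.

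Uncx, a homeobox gene best known from somites, was found within the selected cells at levels above the other barcodes at E9.5. It was at 7.09, 9.54, 29.3 and 45.4 UPM at Ctrl E8.5, cKO E8.5, Ctrl E9.5 and cKO E9.5, and at 1.55 and 2.78 UPM in the other barcodes at Ctrl E9.5 and cKO E9.5. The cells with it were 6.02%, 11.9%, 16.5% and 30.0% of thinned cells. Over all selected cells of Ctrl E9.5 and cKO E9.5, whether or not Uncx was detected, the somite gene Tcf15 was at 1.47 and 6.45 UPM, and Pax1 had 4 UMIs and none. Meox1, a further somite gene, was at 6.36 UPM at Ctrl E9.5 and 24.3 at cKO E9.5 (log2 ratio 1.93, 1.39 to 2.498), past the fold, with 37.6 and 113 UPM in the other barcodes.

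Between E8.5 and E9.5 in Ctrl, 8224 genes were compared with a median log2 ratio of 0.29, and 476 (5.79%) were higher and 347 (4.22%) lower at E9.5 past the fold. The dissections of the stages differed, and 1 library stood for each. This comparison shares the Ctrl E9.5 library with the genotype comparison at that stage, so the values are set side by side and no overlap is read from them. Of 14 measured BrM transcription factors 3 were higher, Lhx2 (2.18, 1.72 to 2.68, with 0.67 in the other barcodes) and Tlx1 (1.97, 1.45 to 2.55, with 1.59) among them. The third was Msx1, at 14.8 UPM at E8.5 and 38.6 at E9.5. Lower were Six2, at 50.8 and 18.8 UPM, and Dach1, at 12.4 and 7.17 UPM, both of the network that acts with Eya factors. Of 10 measured heart field genes 4 were lower and none higher, Hopx (147 and 57.4 UPM, -1.36, with -1.55 elsewhere) with the largest ratio. Edn1 stayed at its level, with a ratio of -0.16 (-0.43 to 0.12), while it was higher at E9.5 in the other barcodes (1.12). Lef1 was higher at E9.5 in the cells (1.53, 1.16 to 1.92) and level in the other barcodes (-0.08).

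Fgf8 was lower at E9.5 in the cells, from 96.9 to 17.6 UPM (-2.46, -2.82 to -2.10), while the other barcodes had 0.40. The FGF feedback inhibitors Spry1 (27.8 to 13.9 UPM) and Spry2 (82.7 to 31.1 UPM) were also lower, which made 3 lower and none higher of 11 measured FGF genes. Of 14 BMP genes 2 were higher, the target genes Msx1 and Msx2 (2.96 to 19.1 UPM), and 2 were lower, the antagonist Fst (233 to 37.5 UPM, -2.63, with -1.49 elsewhere) and the target Id1 (410 to 241 UPM). Cyp26a1 was at 67.4 UPM at E8.5 and 25.4 at E9.5 (-1.41), where the other barcodes had 0.85. Notch2 was lower, at 38.4 and 11.7 UPM, as it was elsewhere (-1.52). Wnt5b, at 1.77 and 14.2 UPM, was higher.

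Genes of the cell surface and matrix differed in both directions between the stages. Nrp2, a receptor for semaphorins and VEGF, was at 44.3 UPM at Ctrl E8.5 and 122 at Ctrl E9.5 (1.46, with 0.67 elsewhere), and Sparc at 24.8 and 179 UPM (2.85, with 1.75 elsewhere). Fn1, fibronectin, was at 345 and 144 UPM (-1.26, -1.41 to -1.10), where the other barcodes had -0.10. Kdr, the VEGF receptor of endothelial and early mesodermal cells, was at 90.4 UPM at E8.5 and 8.64 at E9.5 (-3.39, -3.87 to -2.93, with -0.57 elsewhere). Apoe was at 306 and 50.1 UPM (-2.61, with -0.85 elsewhere). The mesenchyme markers gave 5 lower of 5 measured, Prrx1 (48.5 to 23.8 UPM, with 0.69 elsewhere) among them. Near absent at E8.5 and present at E9.5 were Gfra1, a GDNF receptor (0 UMIs at E8.5 and 66 in 59 cells at E9.5), Ntng1 (1 and 161 UMIs) and Prox1, a homeobox factor (3 and 104 UMIs, with 0.52 elsewhere). Pcp4, a calmodulin-binding peptide, had 18 and 609 UMIs (3.22, 2.55 to 3.99, with 1.03 elsewhere). Glycolysis genes were lower in 9 of 17 measured with none higher and a median of -1.003 relative to all genes. The same list in the other barcodes had a median of -0.81 relative to all genes there.

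**Figure D5:**
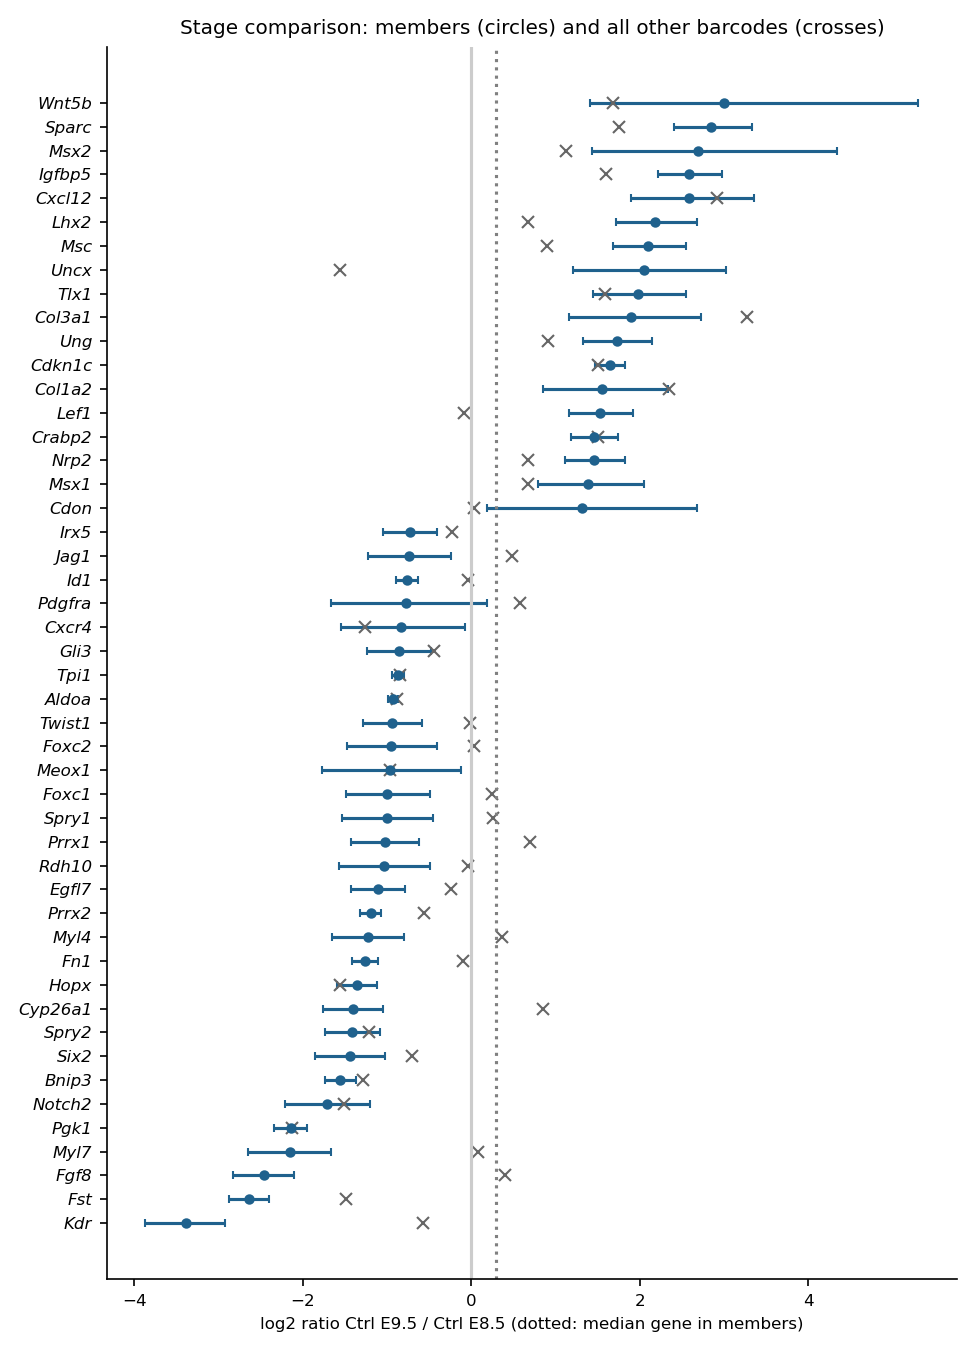
Log2 ratio of Ctrl E9.5 over Ctrl E8.5 for the named listed genes past the fold, in the selected cells (circles, 95% counting intervals) and in all other barcodes of the same libraries (crosses). The dotted line is the median gene in the cells (0.29). Fgf8 and Cyp26a1 are lower in the cells and not in the other barcodes, while Lef1 is higher in the cells (1.53) and near 0 in the other barcodes (-0.08).

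Cells that passed the same bounds but held Myf5 or Myod1 were the nearest neighbours, 76 at Ctrl E9.5 and 44 at cKO E9.5 and none at E8.5. They had slightly more UMIs (medians of 22943.5 and 20830.5, against 19410 and 19190.5). Myf5 was at 64.9 and 56.3 UPM in them, low enough for an expressing cell to hold no UMI. The part of such cells among the negative ones was not tested. Of 6882 genes compared in both libraries, 2 (0.0291%) were higher past the fold in the Myf5 or Myod1 positive cells in both, namely Myf5, which chose them, and Lmo1, a LIM-only cofactor. Lmo1 was at 9.95 UPM in the negative and 20.7 in the positive cells of Ctrl E9.5 and at 8.24 and 32.3 UPM at cKO E9.5. Higher in the negative cells in both libraries were 16 genes (0.232%), among them Irx1 (24.3 against 5.75 UPM in Ctrl, 14.5 against 5.21 in cKO), Pmp22, Gap43, Epha7 and Pdgfrb. Tnni1, a slow troponin that the study lists with cardiac structural genes, was a further one (33.9 against 6.89 UPM in Ctrl, 16.7 against 3.13 in cKO). Nkx2-5 was at 25.6 UPM in the negative and 13.2 in the positive cells of Ctrl, and at 13.4 and 15.6 in cKO. The part of heart-like cells in these values was not tested. Lhx2 was higher in the Myf5 or Myod1 positive cells, with log2 ratios of 0.69 (0.49 to 0.89) in Ctrl and 0.79 (0.30 to 1.27) in cKO, short of the fold, as was Edn1 (0.68 and 0.68). Tbx1 was near equal in Ctrl, with 0.02 (-0.15 to 0.19), and slightly higher in the positive cells of cKO, with 0.31 (0.096 to 0.51). Mef2c was lower in the positive cells of Ctrl (-1.49, -2.25 to -0.81). In cKO, with 10 UMIs in the positive cells, its ratio was -0.15 (-1.29 to 0.84), and the intervals overlapped. The positive cells numbered fewer than 80 in each library, so genes with low counts could not be compared.

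Against Arg1-positive, Pax8-negative cells (296, 368, 385 and 805 at Ctrl E8.5, cKO E8.5, Ctrl E9.5 and cKO E9.5) more genes differed in every library. Of 7399 genes compared in all 4, 42 (0.568%) were higher in the Arg1-positive cells in each, and besides Arg1 they included Hotairm1, Meox1, Cd36, Rarb, Syt12 and Aldh1a2, of which Rarb and Aldh1a2 are genes of retinoic acid response and synthesis. Hotairm1 was at 11.2, 11.8, 4.57 and 2.89 UPM in the BrM progenitors and at 113, 121, 64.4 and 41.2 UPM in the Arg1-positive cells. Higher in the BrM progenitors in each library were 17 genes (0.23%), among them Cyp26a1, Edn1 and Igfbp3, and also Nrp2 and Ebf1. Cyp26a1, at 67.4, 29.2, 25.4 and 16.0 UPM in the BrM progenitors, and Aldh1a2, at 2.36, 0.561, 0.815 and 0.223 UPM there, are a breakdown and a synthesis enzyme of retinoic acid, and in the Arg1-positive cells of Ctrl E8.5 they were at 10.3 and 13.3 UPM.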

How the data were processed

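GFP+ and DAPI- cells of pooled embryos were counted with Chromium 3' v2, and the authors aligned reads to mm10 with Cell Ranger (3.1.0 in the submitters' notes, 3.0.2 in the header of the E8.5 matrices). The deposited values are raw UMI counts per gene and barcode, not normalized. The selection of cells and all gene lists were chosen with earlier results of these data known. Counts of the selected cells were summed per library over shared identifiers and scaled to 1000000 UMIs. Intervals are exact (Poisson for levels, conditional binomial for ratios, Clopper-Pearson for shares). With 1 library per group no test was run, and "past the fold" means at least 2-fold from the median of genes with at least 50 UMIs over both groups and a mean of at least 5 UPM. Named genes were those of the selection, up to 4 listed genes past the fold per list by level, and 10 each way by ratio whose difference in all other barcodes was under 0.5 times as large or opposite; the text gives a part of each. A UMI count of 0 has a floor of 3 counts. No doublet caller was run, and barcodes in the top 5% of UMIs were left out as an alternative. Python 3.11.15 with numpy 2.4.6, scipy 1.17.1 and pandas 2.3.3 was used, with TMM factors from edgeR as an alternative. The code that calls genes past the fold was tested on simulated counts with known changes larger than the 2-fold limit. The simulation held Poisson counting error and no clustering of UMIs in single cells, so it does not check calls near the fold. Gene positions come from the RefSeq annotation of GRCm38.p6. Some genes that met these rules are not reported here.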

Additional observations from a re-analysis of the deposited data

How the results depend on the processing

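With 1 library per group and no replicates, these results rest on counting error alone, and genes of low count could not be compared (5638 genes were compared at E8.5 and 8713 at E9.5). No paired analysis was possible because each group was 1 library and no replicate number is shared. The order of the E9.5 shares (Ctrl above cKO) held under every other choice of bounds tried. At Ctrl E8.5, cKO E8.5, Ctrl E9.5 and cKO E9.5 the share was 8.93%, 9.63%, 6.90% and 5.01% with at least 2 UMIs of Tcf21 and Msc, 3.00%, 3.21%, 2.99% and 1.98% with at least 5, and 3.16%, 2.49%, 3.63% and 2.43% with cells thinned to 10000 UMIs first. Without the upper bounds it was 7.18% at Ctrl E8.5, 11.2% at cKO E8.5, 6.64% at Ctrl E9.5 and 5.15% at cKO E9.5, and of barcodes within the Epcam and Cdh5 and Pecam1 bounds it was 6.76% at Ctrl E9.5. The share of cells with Lhx2, Tlx1 or Edn1 was 30.1%, 14.9%, 48.4% and 12.2% with at least 2 UMIs, and 73.8% (Ctrl E8.5), 82.6% (Ctrl E9.5) and 57.8% (cKO E9.5) without thinning. With a filter of 10 UMIs, which admits more genes of low count, 576 genes were higher and 625 lower at E9.5, 484 and 366 at E8.5, and 1191 and 780 between stages. With the ratio of all other barcodes subtracted, the counts were 68 and 64, 27 and 22, and 158 and 147. At E8.5, 25 genes were lower with at least 5 UMIs, 54 higher and 32 lower with thinned cells, 153 higher without the upper bounds and 24 lower without the cell holding most UMIs of a gene, an alternative chosen after seeing the data. Relative to the median, subtracting the other barcodes turned the E9.5 ratios of Edn1 (0.61), Fgf8 (0.74), Lhx2 (0.026), Pgk1 (-0.13), Postn (-0.49), Prrx1 (-0.0070) and Slc2a3 (0.51), the E8.5 ratio of Msc (0.17) and the stage ratios of Col1a2 (-0.81), Col3a1 (-1.41), Crabp2 (-0.065), Cxcl12 (-0.36), Cxcr4 (0.41) and Hopx (0.18). Other reversals were Acta2 at E9.5 without the upper bounds (-0.73), Mgarp at E8.5 with at least 5 UMIs (0.34) and Meox1 between stages in thinned cells (0.25). Subtracting the other barcodes also brought Tlx1 (-0.67), Isl1 (-0.78), Fgf10 (-0.21), Bmp7 (-0.91) and Hey1 (-0.68) within the fold at E9.5. The same held for Nrg1 (-0.56), Fgf8 (-0.69) and Fgf10 (-0.57) at E8.5. Nrg1 (-1.31) and Lef1 (-1.25) at E9.5 and Edn1 (-1.06) at E8.5 stayed past it. Over the 11 remaining alternatives Lhx2 (-1.69 to -1.54), Tlx1 (-3.37 to -1.83), Edn1 (-1.70 to -1.28), Nrg1 (-2.01 to -1.56), Isl1 (-1.74 to -1.23) and Lef1 (-1.92 to -1.61) stayed past the fold at E9.5 in each, and Fgf8 in 10 (-0.77 in thinned cells). At E8.5 Edn1 stayed past it in 10 of 11 (-0.62 with at least 2 UMIs), Fgf8 in 9, Nrg1 in 6 (-1.25 to -0.27) and Fgf10 in 5 (-1.14 to -0.47). Among the 11, TMM scaling and the filter of 10 UMIs left a gene's counts as they were. A minimum of 5000 UMIs per barcode removed no selected cell at E8.5. These alternatives could hardly move a ratio relative to the median.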
